A study of Mus musculus with 196 samples.

Results

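The 33 genes described here are genomically imprinted in mice. They were taken from the deposited expression table by name (Meg3, Rian, Mirg, Dlk1, Phlda2, Nnat, H19, Igf2, Igf2r, Airn, Cdkn1c, Kcnq1ot1, Slc22a18, Ascl2, Osbpl5, Cd81, Tssc4, Peg3, Usp29, Zim1, Peg10, Sgce, Mest, Snrpn, Ndn, Magel2, Ube3a, Impact, Zrsr1, Plagl1, Grb10, Nap1l5 and Gnas), and all 33 were present among 25706 endogenous genes. The study made PGCLCs, cells resembling primordial germ cells, from mouse embryonic stem cells, grew them under different signals and asked what ZGLP1, a GATA-type zinc finger protein, and BMP2 with retinoic acid do to their entry into the oogenic fate.

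Every PGCLC line carried the same pair of reporter transgenes, Prdm1-mVenus and Dppa3-ECFP, each on a single allele, on a mixed 129S1 and C57BL/6 background in equal parts. OE_A2 (64 libraries) also carried an inducible Zglp1 coding sequence with mCherry under a tetO promoter, and an rtTA transgene under the EF1a promoter. OESko_A11 (16 libraries) carried both of these and was Stra8-/-. The clones Zko_E5 and Zko_G10 (26 libraries each) were Zglp1-/-, and the clones Sko_B6 and Sko_F6 (16 libraries each) were Stra8-/-. H18 (27 libraries) carried the reporters alone. OE_A2, OESko_A11 and H18 are each 1 line, so a difference between them and another line cannot be told apart from a difference between clones. The treatments were Dox (doxycycline), DoxRA (doxycycline with retinoic acid), SerumMinusWINDox, BMSDox, B2RA (BMP2 with retinoic acid), BMP2, RA, SerumMinus, SerumMinusWIN and BMS, and control was the culture without any of these. What BMS and WIN stand for is not given in the sources used here. Groups were sampled between day 0 and day 9 of culture, mostly with 2 libraries each, and 3 single libraries of embryonic germ cells (Dppa3-EGFP PGCs of E9.5, and Ddx4-RFP oocytes of E14.5 and E15.5) were set beside them. Per the labels' protocols, cultured cells grew on m220 feeder cells and were sorted for the Dppa3-ECFP reporter.

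An imprinted gene is expressed from the copy inherited from a given parent, because DNA methylation laid down in the egg or the sperm marks a control region on that copy. Many imprinted genes sit in clusters in which a long non-coding RNA or an insulator keeps neighbouring genes silent on the marked or unmarked copy. In the embryo, primordial germ cells erase these marks, and new ones are laid down later according to the sex of the germ line. The values below sum both parental copies, so they say how much RNA a gene gave and not from which copy.

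The promoters of 5 genes are shown because these genes carried the largest shared changes, Phlda2, Slc22a18 and Nnat with B2RA and Meg3, Mest and Nnat with doxycycline. Each stretch runs from 250 bases before to 50 bases after the gene's start in RefSeq on build GRCm38.p6, 5′ to 3′ on the gene's strand. Capitals mark TGCCGC or its reverse complement GCGGCA, the core of the site read by ZFP57 (a zinc finger protein that protects imprints), and AGATAA or its reverse complement TTATCT, a site of the GATA type. Neither motif overlapped the other in these 5 windows. The windows are chr12:109540746-109541045 for Meg3 (plus strand), chr7:143502475-143502774 for Phlda2 (minus strand), chr7:143473539-143473838 for Slc22a18 (plus strand), chr6:30737800-30738099 for Mest (plus strand) and chr2:157559828-157560127 for Nnat (plus strand).
Meg3: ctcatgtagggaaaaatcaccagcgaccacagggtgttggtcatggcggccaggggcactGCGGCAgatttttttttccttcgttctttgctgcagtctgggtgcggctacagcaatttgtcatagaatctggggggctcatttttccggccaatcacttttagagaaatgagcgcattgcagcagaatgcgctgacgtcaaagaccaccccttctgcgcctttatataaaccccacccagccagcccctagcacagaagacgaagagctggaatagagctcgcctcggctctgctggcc
Phlda2: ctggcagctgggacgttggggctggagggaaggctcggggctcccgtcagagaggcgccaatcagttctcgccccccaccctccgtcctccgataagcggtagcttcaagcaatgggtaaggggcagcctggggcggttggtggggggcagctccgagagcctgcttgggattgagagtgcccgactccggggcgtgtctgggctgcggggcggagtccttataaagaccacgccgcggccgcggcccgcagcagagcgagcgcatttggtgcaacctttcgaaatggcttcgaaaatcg
Slc22a18: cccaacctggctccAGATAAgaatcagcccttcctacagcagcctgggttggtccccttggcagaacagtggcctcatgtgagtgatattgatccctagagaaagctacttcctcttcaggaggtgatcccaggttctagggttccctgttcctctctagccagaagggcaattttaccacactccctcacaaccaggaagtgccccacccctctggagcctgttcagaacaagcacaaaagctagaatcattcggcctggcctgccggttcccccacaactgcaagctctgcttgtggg
Mest: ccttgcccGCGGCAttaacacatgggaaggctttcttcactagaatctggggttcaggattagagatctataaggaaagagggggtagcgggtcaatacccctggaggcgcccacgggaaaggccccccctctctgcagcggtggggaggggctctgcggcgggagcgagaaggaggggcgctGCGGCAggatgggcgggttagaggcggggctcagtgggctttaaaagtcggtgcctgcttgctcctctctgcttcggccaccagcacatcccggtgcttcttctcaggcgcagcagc
Nnat: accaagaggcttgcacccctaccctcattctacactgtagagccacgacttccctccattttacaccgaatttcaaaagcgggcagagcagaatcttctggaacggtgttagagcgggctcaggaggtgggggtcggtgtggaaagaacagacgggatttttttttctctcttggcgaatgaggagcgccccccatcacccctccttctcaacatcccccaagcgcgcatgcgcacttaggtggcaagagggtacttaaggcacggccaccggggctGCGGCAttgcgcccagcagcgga

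Where a gene had more than 1 window, the one with most CpG pairs is shown, the first of equals, and the ZFP57 hexamer itself holds a CpG. The Mest window shown held 2 ZFP57 hexamers, the Meg3 and Nnat windows held 1 each, and the Phlda2 and Slc22a18 windows held none. The other Meg3 window (chr12:109545148-109545447) and the Mest window at chr6:30733256-30733555 held 0. A Mest window at chr6:30737803-30738102 overlaps the one shown and was counted apart. The GATA motif stood in the Slc22a18 window alone among the 5. Of the 33 genes, 28 had an entry in the promoter table, with 43 windows. The ZFP57 hexamer stood in windows of 10 of these 28 genes (11 of 43 windows), against 11.6% of all 32851 windows of that length. The GATA motif stood in 2 of 43 windows, against 11.2% of all windows. The median number of CpG pairs was 14 in windows of the imprinted genes and 7 in all windows. The Phlda2 window held 26 CpG pairs and the Slc22a18 window 2. These are letters in a window and were not compared with binding or methylation, which were not measured here.

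Gene levels are in RPM, reads per 1000000 assigned to endogenous genes, as the authors deposited them. The libraries held 877040 to 5196593 reads, so 1 read was worth 0.192 to 1.14 RPM, and pairs of replicate libraries correlated at 0.941 to 0.991 across genes. The labels do not say that replicates were separate cultures, so p-values measure the spread between these libraries, which may be technical. The 118 libraries used in the comparisons were all extracted under the same one of the labels' protocols. A gene was tested in a comparison where at least 2 of its libraries reached 10 RPM, and it was called where the limma p-value, adjusted over all genes tested by Benjamini-Hochberg, was under 0.05 and the change was at least 1 on the scale of log2(RPM + 1). Only called genes are said to have risen or fallen, and changes are given with their standard errors. The 3′ tag counts of Zglp1 remained in the Zglp1-/- clones at day 9 of B2RA (26.5 ± 8.76 RPM in Zko_E5 and 20.9 ± 6.56 RPM in Zko_G10, against 51.2 ± 3.36 RPM in H18, SD, n = 2), and those of Stra8 were 555 ± 187 RPM in Sko_B6 and 59.9 ± 10.1 RPM in Sko_F6, against 731 ± 104 RPM in H18. Tags at the 3′ end lie outside many deletions and so do not check these labels.

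Among the 33 genes, 7 reached 10 RPM in each of the 191 PGCLC libraries: Igf2r (the receptor that clears IGF2), Kcnq1ot1 (the non-coding RNA that silences its cluster), Tssc4, Peg3 (a zinc finger protein), Snrpn (a splicing protein), Ube3a (a ubiquitin ligase) and Gnas (the stimulatory G protein subunit). H19, a non-coding RNA next to Igf2, had the highest level reached by any of the 33, 2926 RPM. At the other end, 5 genes never reached 10 RPM: Dlk1, a ligand-like protein of the Meg3 cluster (highest 5.71 RPM), Rian, which hosts small nucleolar RNAs (highest 3.64 RPM), Zim1, a zinc finger gene beside Peg3 (highest 8.14 RPM), Peg10, a retrotransposon-derived gene (highest 8.11 RPM) and Nap1l5, related to nucleosome assembly proteins (highest 7.32 RPM). Another 5 reached 10 RPM in few libraries: Airn, the antisense RNA of Igf2r, in 1, Osbpl5, a lipid transfer protein gene, in 2, Magel2, a MAGE family gene, in 3, Usp29, a ubiquitin protease gene, in 5, and Mirg, which hosts microRNAs, in 8. The counting of strands is not stated, so reads of Airn and Igf2r, and of Kcnq1ot1 and the gene it runs across, may be mixed.

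Time in culture was the comparison in which the largest share of these genes was called. In control medium at day 9, against day 4, over the 6 lines OE_A2, OESko_A11, Sko_B6, Sko_F6, Zko_E5 and Zko_G10, 13 of the 23 imprinted genes tested rose and 1 fell. That is 60.9% of those tested, beside 10.6% of all genes tested (limma), with 9.26% higher and 1.39% lower at day 9. The members were chosen with earlier results of these data known, so this share is not independent of the data. A separate list of other imprinted genes, given below, had no gene called in the same comparison. The median change was 1.09 over the imprinted genes tested and 0.07 over all genes tested. The called genes of clusters were Meg3 and Mirg on chromosome 12, H19 and Igf2 on chromosome 7, Cdkn1c, Ascl2, Cd81 and Phlda2 around Kcnq1ot1, Usp29 beside Peg3, and Sgce beside Peg10.

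Meg3, the maternally expressed non-coding RNA of its cluster (chr12:109541001-109571726, plus strand), had 94.7 RPM in its lowest, 161 in its median and 358 in its highest library at day 9, against 10.1, 24.7 and 45.6 RPM at day 4. The ranges did not overlap, and every line was higher at day 9. The change was 2.74 ± 0.27 (adjusted p = 8.8e-15), and it was called in each of the 6 lines alone, with changes between 2.01 and 3.33. By day, the mean of Meg3 in Sko_B6 was 35.9 RPM at day 4, 33.1 at day 5, 89.6 at day 7 and 314 at day 9. In Zko_E5 it was 30.2, 44.6, 97.5 and 170 RPM on the same days.

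Nnat, which encodes a small membrane protein of the endoplasmic reticulum (chr2:157560078-157562522, plus strand), had 20.6, 45.7 and 121 RPM in its lowest, median and highest library at day 9, against 0.361, 0.787 and 6.39 RPM at day 4. At day 4 its levels were highest in Zko_E5 (3.97 and 6.39 RPM), and the ranges did not overlap. The change was 4.46 ± 0.28 (adjusted p = 9.6e-27) and was called in each of the 6 lines, between 2.11 in Zko_E5 and 5.34 in Sko_B6. In Zko_E5 the mean was 5.18 RPM at day 4, 32.1 at day 5, 40.0 at day 7 and 25.6 at day 9, and Sko_F6 had 0.688, 0.734, 6.10 and 28.3 RPM on the same days.

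Gnas (chr2:174284320-174346744, plus strand) had 217, 335 and 467 RPM in its lowest, median and highest library at day 9, against 83.1, 133 and 174 RPM at day 4, a change of 1.35 ± 0.14 (adjusted p = 1.5e-14). Its ranges did not overlap either, and it was called in 5 lines alone, all but Zko_E5. Cd81, a tetraspanin of the cell surface, rose by 2.25 ± 0.22 (adjusted p = 3.6e-15), with 22.8 to 126 RPM at day 9 and 6.95 to 36.1 RPM at day 4. Plagl1, a zinc finger transcription factor (chr10:13060504-13131694), rose by 2.45 ± 0.37 (adjusted p = 2.2e-08), with 7.92 to 105 RPM at day 9 and 0.361 to 12.8 RPM at day 4. For Cd81 and Plagl1 the highest libraries of day 4 lay within the range of day 9.

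The growth factor gene Igf2 (chr7:142650766-142666816, minus strand) rose by 1.70 ± 0.26, with a median of 28.1 RPM at day 9 and 5.75 RPM at day 4. H19 (chr7:142575529-142578143, minus strand), which lies beside it and is usually expressed from the other parental copy, rose by 1.47 ± 0.30, with a median of 442 RPM at day 9 and 191 RPM at day 4. Cdkn1c, an inhibitor of cyclin-dependent kinases, rose by 1.83 ± 0.23, with medians of 20.5 RPM at day 9 and 3.64 RPM at day 4. Mest, a hydrolase-fold protein, rose by 1.14 ± 0.15, with medians of 146 RPM at day 9 and 56.7 RPM at day 4. Sgce, a sarcoglycan, rose by 2.12 ± 0.29 from a low level, with 3.84 to 21.3 RPM at day 9 and 0 to 3.68 RPM at day 4. Ascl2 (a trophoblast transcription factor), Mirg and Usp29 rose by 1.36 ± 0.25, 1.09 ± 0.29 and 1.08 ± 0.24, and these 3 changes fell under 1 with a pseudocount of 5 (0.83, 0.60 and 0.62).

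Phlda2, a pleckstrin-homology protein that restrains placental growth (chr7:143501545-143503150, minus strand), was the gene that fell. It had 4.94, 13.4 and 75.5 RPM in its lowest, median and highest library at day 9, against 18.5, 48.4 and 197 RPM at day 4. The change was -1.76 ± 0.25 (adjusted p = 7.7e-09), the ranges overlapped, and the call was made in 4 lines alone (OE_A2, Sko_B6, Zko_E5 and Zko_G10). Single lines called between 4 imprinted genes (Sko_F6, 17 tested, beside 2.57% of all genes) and 10 (OE_A2, 20 tested, beside 10.5% of all genes). These fits of single lines were chosen after values had been seen.

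**Figure D1:**
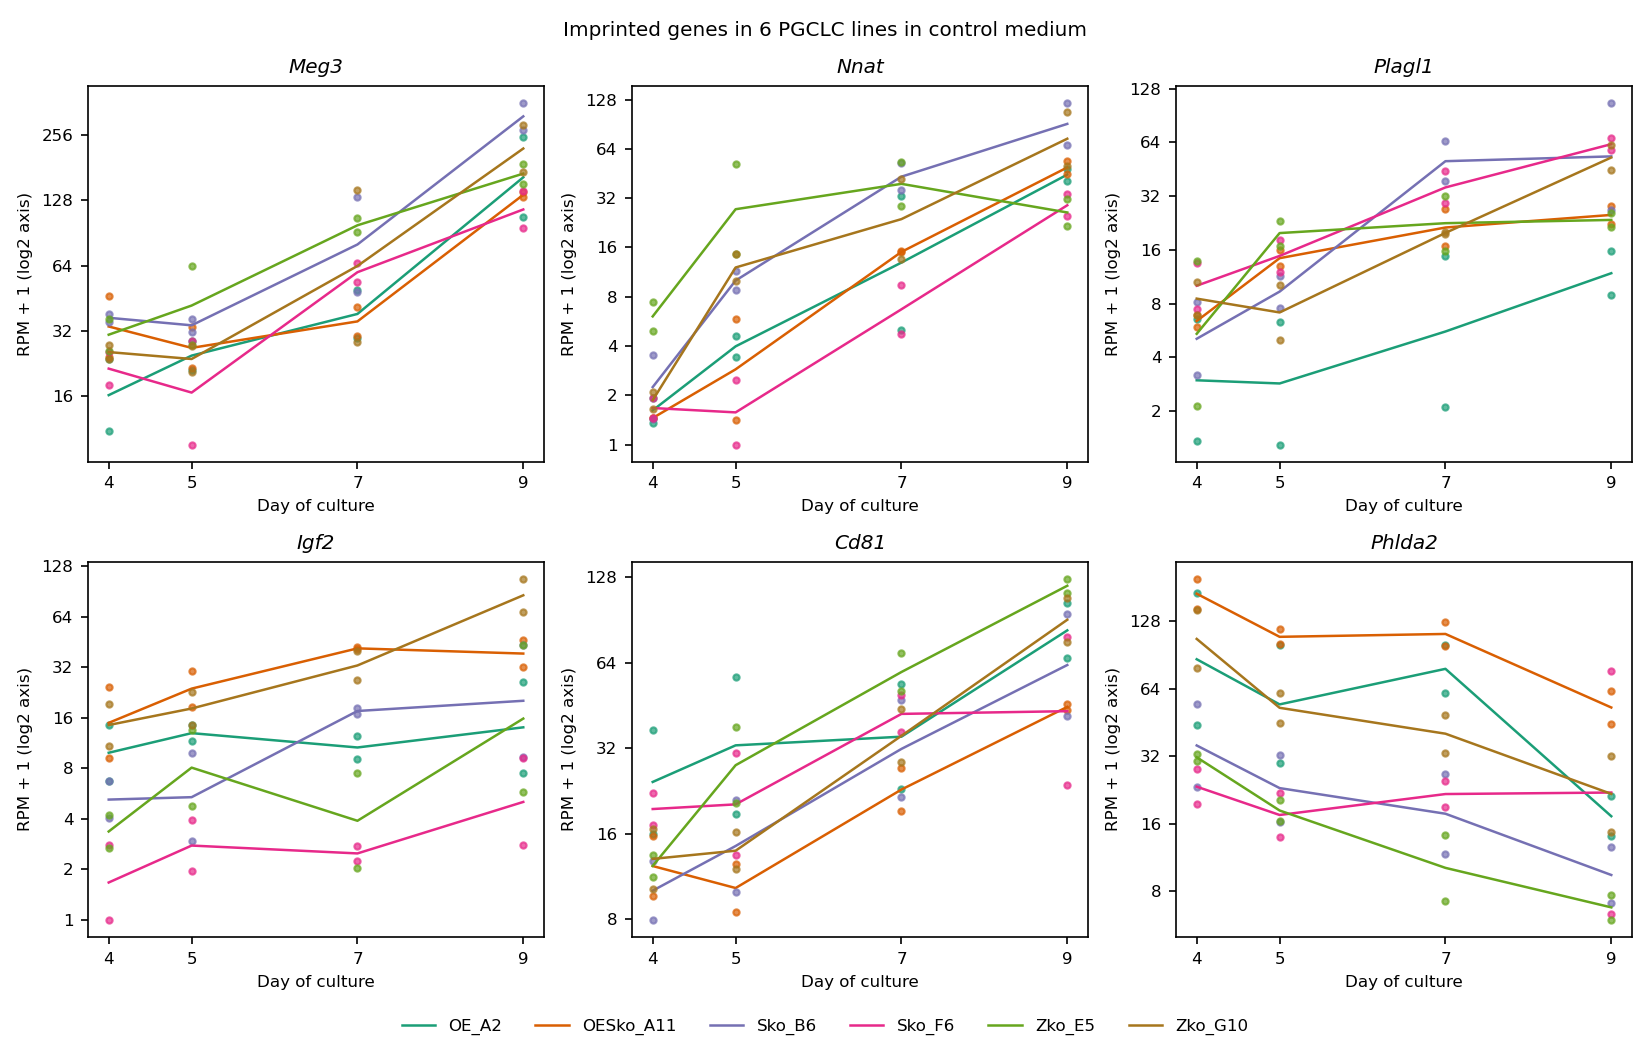
Levels of 6 imprinted genes (RPM + 1, log2 axis) against the day of culture in control medium, in 6 PGCLC lines; points are libraries and lines join the means of log2 values. Meg3 and Nnat are higher at day 9 than at day 4 in every line, with medians of 161 and 45.7 RPM at day 9, and every Igf2 point of Zko_G10 (9.82 RPM or more) lies above every Igf2 point of Sko_F6 (8.17 RPM or less).

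Other marker genes moved over the same days. The summed level of 18 feeder and stroma markers was 84 to 712 RPM (median 293) at day 9 and 49.4 to 292 RPM (median 113) at day 4, and 7 of its 12 tested genes rose. The 12 mesoderm and endoderm markers summed to 10.8 to 104 RPM (median 41.6) at day 9 and 9.13 to 24.5 RPM (median 13.4) at day 4, and Gata4 was called higher. The 10 germ cell markers stayed high, at 3560.2 to 7808 RPM at day 9 and 4144 to 5511 RPM at day 4, with 1 of 10 called (Dazl, higher). The part of feeder or other cells in the rise of the imprinted genes was not tested, and in bulk libraries fewer cells of a type and less RNA per cell cannot be told apart. Of 22 genes that keep or erase imprints, 3 of 19 tested rose, where 9.26% of all genes were higher. They were Uhrf1, a cofactor of maintenance methylation (1.88), and Dnmt3b and Dnmt3l, of the de novo methylation machinery (1.78 and 3.47). Of 45 other imprinted genes, 0 of 19 tested were called by limma, beside 10.6% of all genes, and 9 had an unadjusted p under 0.05.

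Under B2RA fewer imprinted genes were called than over time in culture, with changes in both directions. Over the 4 clones Zko_E5, Zko_G10, Sko_B6 and Sko_F6 at day 9, with each clone compared with its own control, 5 of 25 imprinted genes tested rose and 2 fell under B2RA. That is 28.0%, beside 14.1% of all genes tested (limma). The median change was 0.07 over the imprinted genes tested and 0.16 over all genes. Over all genes 1084 (10.2%) were called higher and 413 (3.88%) lower on RPM, and 762 higher and 639 lower once RPM was scaled by TMM factors, which moved the median of all genes to -0.05. The neighbours Phlda2 and Slc22a18 rose, H19 and Igf2 rose, Grb10 rose, and Mest and Nnat fell.

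Phlda2 had 520 and 394 RPM in Zko_E5 under B2RA, against 4.94 and 6.70 RPM in its control. In Zko_G10 it had 479 and 547 RPM under B2RA, against 13.7 and 31.0 RPM in control, and in Sko_B6 it had 202 and 179 RPM under B2RA, against 6.10 and 11.5 RPM in control. Sko_F6 had 174 and 109 RPM under B2RA, against 75.5 and 5.33 RPM in control. Every B2RA library was above every control library of the 4 clones, although the control libraries of Sko_F6 lay far apart. The shared change was 4.41 ± 0.31 (adjusted p = 2.1e-22), and it was called in each clone alone, with changes of 6.07, 4.56, 4.34 and 2.66 in Zko_E5, Zko_G10, Sko_B6 and Sko_F6. Slc22a18, a membrane protein related to organic cation transporters that lies next to Phlda2 (chr7:143473736-143499334, plus strand), had 6.99, 21.4 and 38.7 RPM in its lowest, median and highest B2RA library, against 0, 0.878 and 4.63 RPM in control. Its groups did not overlap, and its change was 3.40 ± 0.33 (adjusted p = 4.2e-16), called in 3 of the 4 clones alone (not in Sko_F6). Cdkn1c, in the same cluster (chr7:143458339-143461050, minus strand), differed by 0.98 (adjusted p = 0.0023), just short of the limit of 1, and Ascl2, Cd81 and Tssc4 were not called.

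H19 had 704, 1328 and 2926 RPM in its lowest, median and highest B2RA library, against 292, 417 and 834 RPM in control, a shared change of 1.52 ± 0.36 (adjusted p = 0.00027). The ranges overlapped, and among single clones it was called in Zko_E5 alone, where it had 2255 and 2926 RPM under B2RA, against 292 and 434 RPM in control. In Sko_F6 H19 had 704 and 821 RPM under B2RA, against 834 and 709 RPM in control, and it was not called. Igf2 had 40.8, 70.9 and 125 RPM under B2RA, against 1.78, 25.3 and 107 RPM in control, a change of 1.93 ± 0.31 (adjusted p = 1.7e-07). It was called in Zko_E5, Sko_B6 and Sko_F6 alone. Zko_G10 already had 67.2 and 107 RPM in control, against which its 108 and 125 RPM under B2RA were not called. Grb10, an adaptor that restrains insulin and IGF receptor signalling (chr11:11930508-12038683, minus strand), had 2.37, 9.11 and 13.9 RPM under B2RA, against 0.381, 1.42 and 5.81 RPM in control. Its change of 1.69 ± 0.29 (adjusted p = 7e-07) rested on low levels and fell to 0.91 with a pseudocount of 5.

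Nnat had 0, 1.18 and 3.37 RPM in its lowest, median and highest B2RA library, against 20.6, 41.1 and 121 RPM in control, and the groups did not overlap. The change was -4.42 ± 0.34 (adjusted p = 3.2e-21) and was called in each of the 4 clones. The B2RA libraries of these clones had 0 to 3.37 RPM at day 9 and 0 to 1.6 RPM at day 4, and their change with time was not tested. Mest (chr6:30723547-30748465, plus strand) had 26.4, 44.7 and 93 RPM under B2RA, against 88.3, 145 and 204 RPM in control, a change of -1.59 ± 0.19 (adjusted p = 3.9e-12) that was also called in each of the 4 clones. The Mest ranges met through a single B2RA library of Zko_E5 at 93 RPM. Impact (-0.90, adjusted p = 1e-06) and Gnas (0.72, adjusted p = 0.0002) differed by less than 1. Meg3, which rose with time in control medium, had 49.8 to 383 RPM under B2RA and 94.7 to 358 RPM in control at day 9 and was not called (-0.51, adjusted p = 0.20).

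**Figure D2:**
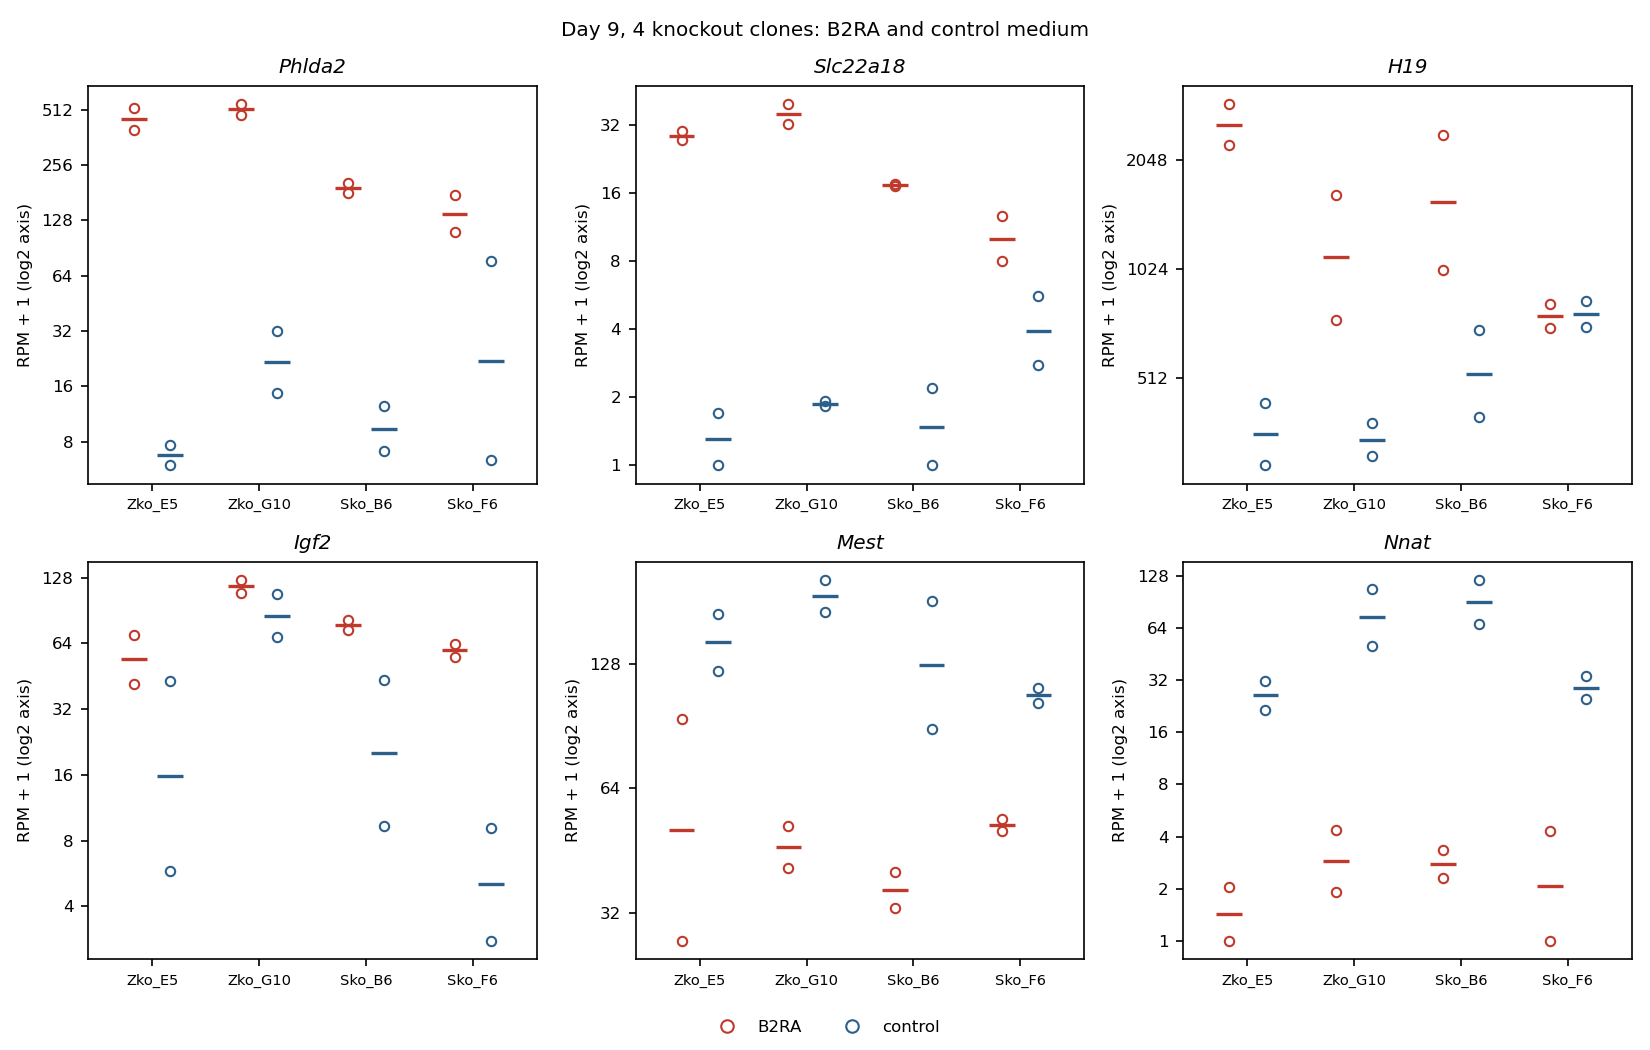
Levels of 6 imprinted genes (RPM + 1, log2 axis) at day 9 in 4 knockout clones, with B2RA libraries in red to the left of control libraries in blue; points are libraries and bars are means of log2 values. Phlda2, Slc22a18 and Nnat separate the treatments in all 4 clones, while the H19 points of Sko_F6 lie together, at 704 and 821 RPM under B2RA and 834 and 709 RPM in control.

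The B2RA response was also fitted at single earlier days. At day 4, 1 of 17 imprinted genes tested was called over the 4 clones, beside 0.708% of all genes. This gene was Phlda2, with 102, 189 and 638 RPM in its lowest, median and highest B2RA library, against 18.5, 30.6 and 142 RPM in control (2.32, adjusted p = 4.6e-08). At day 5, 3 of 19 were called, beside 1.14% of all genes: Phlda2 was higher (3.10), and Nnat (-2.30) and Meg3 (-1.31, adjusted p = 0.0079) were lower under B2RA. At day 7, 7 of 21 were called, beside 6.53% of all genes. Phlda2 (3.92), Slc22a18 (2.70), Igf2 (2.19), H19 (1.26) and Cdkn1c (1.21) were higher, and Mest (-1.27) and Nnat (-3.17) were lower under B2RA. These fits of single days were chosen after values had been seen. Slc22a18 was not tested at days 4 and 5, since fewer than 2 libraries reached 10 RPM. Differences between days were not themselves tested.

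The response was then taken apart by genotype, and Phlda2, Slc22a18, Mest and Nnat were called in both the Stra8-/- and the Zglp1-/- clones. In the Zglp1-/- clones, 5 of 22 imprinted genes tested were called (22.7%, beside 11% of all genes): H19, Phlda2 and Slc22a18 were higher, by 2.26, 5.32 and 4.36, and Mest and Nnat were lower, by -1.76 and -4.43. Among all genes 662 (6.63%) were higher and 432 (4.33%) lower there, and 472 higher and 566 lower with TMM factors. In the Stra8-/- clones, 9 of 23 were called (39.1%, beside 20.8% of all genes): Igf2 (2.75), Cdkn1c (1.32), Phlda2 (3.5), Slc22a18 (2.45) and Grb10 (2.64) were higher, and Mest (-1.42), Nnat (-4.41), Peg3 (-1.25, adjusted p = 0.028) and Impact, a regulator of translation under stress (-1.29, adjusted p = 1e-06), were lower. The Peg3 call was lost in 6 of 8 fits without a single library, with changes of -1.27 to -1.08 (adjusted p of 0.054 to 0.1). Over all genes 1589 (15.7%) were higher and 514 (5.08%) lower there, and 1029 higher and 888 lower with TMM factors.

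The difference between the 2 genotypes was tested directly, as the B2RA response of the Stra8-/- clones minus that of the Zglp1-/- clones. Each genotype had 2 clones, and the p-values do not hold the spread between clones. It was called for 3 of 25 imprinted genes (12%, beside 8.04% of all genes). Phlda2 and Slc22a18 responded less in the Stra8-/- clones, with differences of -1.82 ± 0.62 (adjusted p = 0.041) and -1.91 ± 0.65 (adjusted p = 0.04). The Slc22a18 call was lost in 15 of 23 other settings. Grb10 responded more, with a difference of 1.89 ± 0.59 (adjusted p = 0.022, and 0.11 with only the groups compared). Among all genes 674 (6.33%) differed upwards and 182 (1.71%) downwards, and 507 higher and 292 lower with TMM factors. The Phlda2 difference rested on the control library of Sko_F6 with 75.5 RPM: without it the difference was -0.92 (adjusted p = 0.35). Between clones of the same genotype the response differed for 0 of 22 imprinted genes in Zko_G10 minus Zko_E5 (beside 3.36% of all genes, with 1 gene below 0.05 before adjustment) and for 0 of 23 in Sko_F6 minus Sko_B6 (beside 0% of all genes, with 2 genes below 0.05 before adjustment), by limma.

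Marker genes also moved with B2RA at day 9. Germ cell markers summed to 3128 to 4344 RPM under B2RA and 5632 to 7808 RPM in control, with Ddx4 and Dazl higher and Prdm14 and Dppa5a lower. Pluripotency markers summed to 346 to 605 RPM under B2RA and 1076 to 1515 RPM in control, and 5 of 6 fell. Mesoderm and endoderm markers summed to 71.8 to 219 RPM under B2RA and 10.8 to 97.3 RPM in control, with Hand1 (3.91), Gata4 (2.04) and Gata6 (1.83) called higher and T at 0 in every B2RA library. Trophoblast markers, among them Hand1 and Ascl2, summed to 46.7 to 136 RPM under B2RA and 37.5 to 93.4 RPM in control. The feeder and stroma sum was 200 to 493 RPM under B2RA and 213 to 712 RPM in control, with 0 of 12 tested genes called higher. The part of these markers in the changes of the imprinted genes was not tested. Of 19 tested genes that keep or erase imprints, Kdm1b, a histone demethylase needed for imprints in oocytes, rose (1.15), and Dnmt3l (-2.23) and Tet1, a methylcytosine dioxygenase (-1.36), fell. Of 19 other imprinted genes tested, Cobl (1.35) and Ddc (1.63) rose and Dcn, which is also a stroma marker, fell (-1.60). In this comparison 14.1% of all genes were called, 10.2% higher and 3.88% lower, and the genes named from these lists lie near that share.

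BMP2 without retinoic acid was given to the Zglp1-/- clones, and it changed Phlda2 and Nnat alone among 21 imprinted genes tested (9.52%, beside 1.46% of all genes, 0.815% higher and 0.648% lower). Phlda2 had 143 and 74.7 RPM in Zko_E5 and 115 and 101 RPM in Zko_G10 with BMP2, against 4.94 and 6.70 RPM in Zko_E5 and 13.7 and 31.0 RPM in Zko_G10 in control. The groups did not overlap, and the change was 3.14 ± 0.44 (adjusted p = 1.6e-07). Nnat had 0.647 to 3.85 RPM with BMP2, against 20.6 to 107 RPM in control (-3.87 ± 0.48, adjusted p = 1.5e-09). Both genes were called in each clone alone, beside 0.42% of all genes in Zko_E5 and 1.24% in Zko_G10. Slc22a18 stood at 3.79 to 9.44 RPM with BMP2 and was not tested, since fewer than 2 libraries reached 10 RPM. BMP2 and B2RA were compared with the same control libraries.

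H18 had no control libraries at day 9, and its B2RA libraries were compared with its BMP2 libraries, which asks what retinoic acid added. Of 20 imprinted genes tested, 5 were called (25%, beside 16% of all genes, 9.05% higher and 6.98% lower). Meg3 had 157 and 35.9 RPM with B2RA, against 3.15 and 8.80 RPM with BMP2 (3.58 ± 0.67, adjusted p = 2.2e-05), and the libraries did not overlap. Cdkn1c had 60.9 and 76.6 RPM with B2RA, against 10.2 and 29.4 RPM with BMP2 (1.91 ± 0.56, adjusted p = 0.0076). Plagl1 (2.84, adjusted p = 0.014) and Igf2 (1.66, adjusted p = 0.041) were higher and Ascl2 was lower (-2.21, adjusted p = 0.0048) with B2RA. The replicates of H18 lay far apart, and leaving out single libraries gave between 1 and 5 calls: 2 without B2RA replicate 1, 3 without BMP2 replicate 1 and 1 without BMP2 replicate 2. In the same libraries pluripotency markers summed to 82.7 and 90.4 RPM with B2RA and 546 and 869 RPM with BMP2, and 5 of 6 fell. Feeder and stroma markers summed to 767 and 258 RPM with B2RA and 74.8 and 280 RPM with BMP2, and 4 of 9 tested rose. Germ cell markers summed to 3135 and 3150.1 RPM with B2RA and 4314 and 4691 RPM with BMP2, and mesoderm and endoderm markers to 228 and 63.4 RPM with B2RA and 16.2 and 28.4 RPM with BMP2. Their part in the imprinted genes was not tested. Nnat was listed at 0 in all H18 libraries but 3: those of B2RA at day 9, with 17.9 and 3.65 RPM, and one of BMP2 at day 7, with 0.243 RPM.

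Induction of Zglp1 was examined in OE_A2 at day 9 in 3 media, each with and without doxycycline. Averaged over the 3 media, 3 of 23 imprinted genes tested rose and 5 fell with doxycycline (34.8%, beside 22.4% of all genes). The median change was -0.29 over the imprinted genes tested and 0.09 over all genes tested. Over all genes 1382 (13.4%) were higher and 930 (9.01%) lower, and 1114 higher and 1142 lower with TMM factors, which moved the median of all genes to -0.04. The induced transcript was followed by its mCherry tag, which had means of 1292 RPM with Dox, 6287 with SerumMinusWINDox and 10340.1 with BMSDox, against 284 RPM in control, 234 in SerumMinusWIN and 69.7 in BMS. Pluripotency markers summed to 166 to 445 RPM with doxycycline and 666 to 1236 RPM without it, with no overlap, and 5 of 6 fell. Of 9 germ cell markers tested, 2 rose and 4 fell, and the feeder and stroma sum was 93.1 to 337 RPM with doxycycline and 84 to 356 RPM without it. The part of these markers in the changes of the imprinted genes was not tested.

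Mest had 30.1, 41 and 59.5 RPM in its lowest, median and highest library with doxycycline, against 147, 214 and 290 RPM without it. The groups did not overlap in any medium, and the change was -2.29 ± 0.22 (adjusted p = 1.2e-16), between -2.38 and -2.20 in single media. Nnat had 2.12, 19.9 and 26.2 RPM with doxycycline, against 33.8, 44.2 and 131 RPM without it (-2.03 ± 0.39, adjusted p = 6.3e-06), again without overlap. In single media the Nnat change was -3.02 with Dox against control, -2.26 with SerumMinusWINDox against SerumMinusWIN and -0.80 with BMSDox against BMS. The change with BMSDox was not called (adjusted p = 0.39), and the Nnat responses in SerumMinusWIN and BMS were not called as differing from that in control medium (adjusted p = 1 and 0.22). Mest and Nnat were also the 2 genes called lower with B2RA over the 4 knockout clones together. In the Stra8-/- clones, Impact and Peg3 were called lower with B2RA as well.

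Meg3 had 7.58, 73.7 and 134 RPM in its lowest, median and highest library with doxycycline, against 106, 228 and 393 RPM without it, a shared change of -2.30 ± 0.39 (adjusted p = 2.7e-07). With Dox it had 7.58 and 7.74 RPM, against 106 and 248 RPM in control (-4.24, adjusted p = 3.5e-07), and the changes were -1.57 (adjusted p = 0.057) with SerumMinusWINDox against SerumMinusWIN and -1.11 (adjusted p = 0.20) with BMSDox against BMS. The difference of these responses from the response in control medium was not called for Meg3 (adjusted p = 0.8 for SerumMinusWIN and 0.063 for BMS). Impact had 28, 39.5 and 84 RPM with doxycycline, against 72.9, 95.5 and 125 RPM without it (-1.17 ± 0.18, adjusted p = 3.7e-08), and without SerumMinusWINDox replicate 2 the change was -0.91. Grb10 had 7.44, 12.9 and 17.1 RPM with doxycycline, against 1.44, 3.63 and 6.1 RPM without it (1.57 ± 0.34, adjusted p = 3.9e-05), with no overlap. Cd81 (-1.05), Cdkn1c (1.02) and Phlda2 (1.05) were called just past the limit of 1. Cdkn1c and Phlda2 had changes of 0.88 and 0.92 with TMM factors.

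In single media, 5 of 21 imprinted genes tested were called with Dox against control (beside 22.8% of all genes, 13.4% higher and 9.38% lower), 4 of 22 with SerumMinusWINDox against SerumMinusWIN (beside 23.1%, 13.3% higher and 9.71% lower) and 5 of 22 with BMSDox against BMS (beside 21.2%, with all genes 1376 (14.8%) higher and 593 (6.39%) lower, and 844 higher and 989 lower with TMM factors). These shares lie near those of all genes. Phlda2 had 107 and 172 RPM with BMSDox, against 21.8 and 35.5 RPM with BMS (2.25), and was not called in the other media. Ndn, a MAGE family gene, was called lower with SerumMinusWINDox (-1.68), but its change was -0.59 without SerumMinusWINDox replicate 2. Plagl1 was called lower there too (-2.26), with -0.10 without SerumMinusWINDox replicate 1. Zrsr1, a splicing factor gene, was called higher with BMSDox (1.55, with 31.6 and 34.1 RPM, against 4.5 and 23.4 RPM with BMS), and its change was 0.47 without BMS replicate 1. Of the media without doxycycline, BMS against control called 2 of 21 imprinted genes (beside 2.46% of all genes): Igf2 was higher, at 76.5 and 127 RPM with BMS, against 6.54 and 25.2 RPM in control (2.83, adjusted p = 0.0035, and 1.93 with adjusted p = 0.3 without control replicate 1), and Zrsr1 was lower (-1.31, and -0.24 without BMS replicate 1). Among all genes 49 (0.542%) were higher and 173 (1.91%) lower there, and 84 higher and 101 lower with TMM factors. SerumMinusWIN against control called 0 of 22 by limma (beside 0.022% of all genes, 0.011% higher and 0.011% lower), and edgeR also called 0. No imprinted gene had an unadjusted p below 0.05 there (0 of 22).

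**Figure D3:**
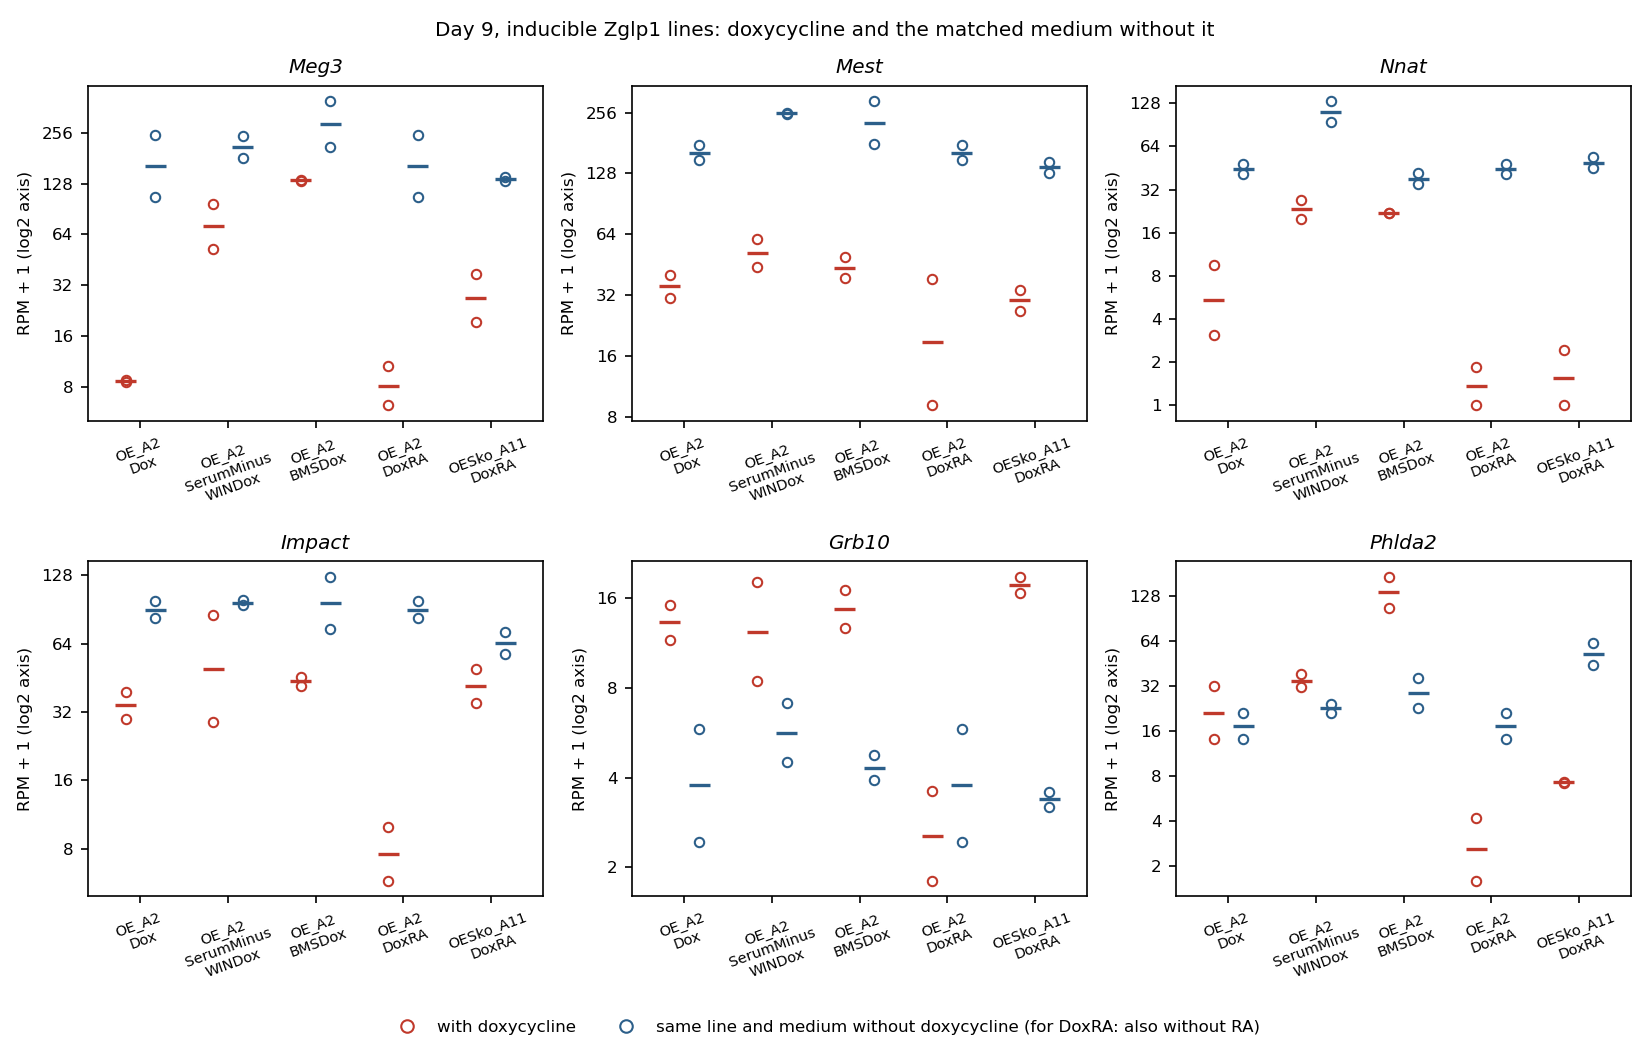
Levels of 6 imprinted genes (RPM + 1, log2 axis) at day 9, with doxycycline in red to the left of the same line and medium without it in blue (for DoxRA, control, which also lacks retinoic acid); points are libraries and bars are means of log2 values. Mest is lower with doxycycline in all 5 pairs, at 30.1 to 59.5 RPM against 147 to 290 RPM in the 3 OE_A2 media without retinoic acid, and Impact is lowest in OE_A2 with DoxRA.

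Doxycycline with retinoic acid lowered imprinted genes in OE_A2 and raised none. With DoxRA at day 9, 11 of 21 imprinted genes tested fell and 0 rose against control (52.4%, beside 48.2% of all genes, a share near the background). Of all genes, 25.6% rose and 22.5% fell. The median change was -1.40 over the imprinted genes tested and 0.11 over all genes. Impact had 4.78 and 8.95 RPM with DoxRA, against 81.9 and 97.4 RPM in control (-3.57, adjusted p = 3.8e-18), and Zrsr1 had 2.39 and 5.49 RPM, against 25.9 and 29.9 RPM in control (-2.62, adjusted p = 4.6e-10). Neither gene's libraries overlapped between DoxRA and control, and the share of all genes without overlap was not counted. Nnat had 0 and 0.866 RPM with DoxRA, against 39.9 and 47.4 RPM in control (-5.03), and Meg3 had 5.20 and 9.57 RPM, against 106 and 248 RPM in control (-4.33). Mest (-3.11), Phlda2 (-2.75), Ascl2 (-2.53), Cd81 (-2.16), Peg3 (-1.55, adjusted p = 0.043), Gnas (-1.40) and Snrpn (-1.08) also fell. Without DoxRA replicate 1 the count was 7, and the calls of Gnas, Ascl2, Snrpn and Peg3 were lost. Peg3 was not called either when DoxRA replicate 2 (-1.81, adjusted p = 0.062) or control replicate 2 (-1.03, adjusted p = 0.3) was left out, nor was Snrpn when control replicate 1 was left out (-0.67, adjusted p = 0.07).

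In these libraries the markers had moved far. Pluripotency markers summed to 53.4 and 73.1 RPM with DoxRA, against 666 and 772 RPM in control, trophoblast markers to 4.91 and 8.77 RPM, against 56.1 and 61.4 RPM in control, and Dppa3, whose reporter was used to sort the cells, changed by -7.63. The part of these changes in the fall of the imprinted genes was not tested. Of 18 tested genes that keep or erase imprints, Setdb1, a histone H3 methyltransferase (3.02), and Hells, a chromatin remodeller (1.87), rose and 8 fell. Of all genes tested, 25.6% rose and 22.5% fell. In the 3 media with doxycycline alone, 5 of 20 such genes were called, beside 22.4% of all genes, a share near the background. Setdb1 rose (1.69), and Dnmt3b (-1.91), Dnmt3l (-2.29), Tet1 (-1.80) and Dppa3 (-1.44) fell. DoxRA was also set against Dox in the same line. Of 18 imprinted genes tested, 5 fell and 0 rose (beside 14.9% of all genes, 4.28% higher and 10.6% lower). The 5 were Phlda2 (-3.04), Ascl2 (-2.28), Impact (-2.17), Zrsr1 (-2.22) and Grb10 (-2.38). Dox and DoxRA were compared with the same control libraries of OE_A2, so their changes are not independent.

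In OESko_A11, which lacks Stra8, DoxRA against control called 5 of 21 imprinted genes tested (23.8%, beside 20% of all genes, which were 1301 (13.5%) higher and 634 (6.56%) lower, and 838 higher and 948 lower with TMM factors). Meg3 had 18.4 and 36.2 RPM with DoxRA, against 131 and 138 RPM in control (-2.34, adjusted p = 0.0046), and Phlda2 had 6.19 and 6.29 RPM, against 43.4 and 61.6 RPM in control (-2.86, adjusted p = 0.00019). Mest had 25.7 and 32.9 RPM with DoxRA, against 127 and 145 RPM in control (-2.19), and Nnat had 0 and 1.45 RPM, against 43.9 and 53.0 RPM in control (-4.97). Grb10 moved the other way, with 15.7 and 17.9 RPM, against 2.20 and 2.58 RPM in control (2.39, adjusted p = 0.00085). None of these 5 called genes overlapped between DoxRA and control. With 2 libraries on each side a call makes this likely, and the share over all genes was not counted. The Meg3 call was lost without DoxRA replicate 2, where the change was -1.87. In the same libraries feeder and stroma markers summed to 503 and 715 RPM with DoxRA and 120 and 221 RPM in control, with 3 of 7 tested called higher. Pluripotency markers summed to 277 and 273 RPM with DoxRA and 853 and 866 RPM in control, and 5 of 6 fell. The part of these markers in the imprinted genes was not tested.

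The response of OESko_A11 minus that of OE_A2 was called for 4 of 22 imprinted genes (18.2%, beside 20% of all genes). The DoxRA response was higher in OESko_A11 by 2.95 ± 0.45 for Impact (adjusted p = 2.1e-07), 2.91 ± 0.51 for Zrsr1, 2.96 ± 0.83 for Grb10 (adjusted p = 0.0053) and 1.78 ± 0.48 for Gnas (adjusted p = 0.0036). Over all genes 1535 (14.8%) differed upwards and 544 (5.24%) downwards, and 1257 higher and 771 lower with TMM factors. The mCherry tag stood at 4841 RPM with DoxRA in OESko_A11 and 3165 RPM with DoxRA in OE_A2. As each genotype is 1 line, the lack of Stra8 and the line cannot be told apart.

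The clones of a genotype differed in few genes, and imprinted genes were among them. Over control and B2RA at days 4 to 9, Zko_G10 against Zko_E5 called 2 of 23 imprinted genes (8.7%) and 0.212% of all genes, which is 22 genes of 10383 (0.0385% higher and 0.173% lower). Igf2 had 9.82, 26.5 and 125 RPM in the lowest, median and highest library of Zko_G10, against 1.04, 9.59 and 69 RPM in Zko_E5, a difference of 1.64 ± 0.22 (adjusted p = 1e-07). Cdkn1c had 5.16, 14.8 and 89.9 RPM in Zko_G10, against 1.26, 4.73 and 37.1 RPM in Zko_E5, a difference of 1.5 ± 0.20 (adjusted p = 4.7e-08). The ranges of both genes overlapped. No gene of the marker lists was called between these clones.

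The Stra8-/- clones also differed in Igf2, and further in Meg3 and Nnat. Sko_F6 against Sko_B6 called 3 of 24 imprinted genes (12.5%, beside 0.398% of all genes, 0.209% higher and 0.19% lower), all lower in Sko_F6. Meg3 had 6.18, 26.4 and 140 RPM in Sko_F6, against 13.7, 44.4 and 383 RPM in Sko_B6 (-1.25 ± 0.24, adjusted p = 4.6e-05). Igf2 had 0, 2.63 and 63 RPM in Sko_F6, against 1.94, 9.24 and 81.3 RPM in Sko_B6 (-1.19 ± 0.22), and Nnat differed by -1.14 ± 0.24 (adjusted p = 0.0004). OESko_A11 against OE_A2 in control called 4 of 22 (18.2%, beside 1.63% of all genes, 0.399% higher and 1.23% lower): Igf2 (1.22 ± 0.31), Phlda2 (1.03 ± 0.31) and Plagl1 (1.61 ± 0.45) were higher and Cd81 (-1.04 ± 0.27) was lower in OESko_A11, and 0 were called with a pseudocount of 5. With the same pseudocount the differences of Igf2 and Nnat in Sko_F6 against Sko_B6 were both -0.71 and were not called. The Nnat call was also lost with edgeR (adjusted p = 0.067) and without day 7 (-0.94).

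Over the 6 lines in control medium at days 4 to 9, a limma F test for any difference between lines called 11 of 24 imprinted genes (45.8%, beside 12.4% of all genes), with the range of line means at 1 or more. Igf2 had the widest range, 3.41 (adjusted p = 3.5e-17). Its line means were 37.8 RPM in Zko_G10, 29.5 in OESko_A11, 13 in Sko_B6, 11.8 in OE_A2, 9.49 in Zko_E5 and 2.33 in Sko_F6. Neighbours in this order overlapped. At its ends, every library of Zko_G10 (9.82 to 107 RPM) and of OESko_A11 (8.19 to 45.6 RPM) lay above every library of Sko_F6 (0 to 8.17 RPM). Phlda2 had a range of 2.86 (adjusted p = 2.7e-13), with line means of 111 RPM in OESko_A11, 66.6 in OE_A2, 56.2 in Zko_G10, 25.2 in Sko_F6, 22.1 in Sko_B6 and 15.9 in Zko_E5. Its libraries lay at 43.4 to 197 RPM in OESko_A11 and 4.94 to 31.7 RPM in Zko_E5, with no overlap. Plagl1 ranged over 2.30, and its lowest line mean, 6.13 RPM in OE_A2, stood below those of the other lines, 16.0 to 32.4 RPM.

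The remaining calls over the 6 lines were Slc22a18 (range 2.1, highest in OESko_A11 at 7.87 RPM), Nnat (2.1, highest in Sko_B6 at 36.9 RPM and lowest in Sko_F6 at 8.95 RPM), Cdkn1c (2.08, from 5.72 RPM in Sko_F6 to 25.1 RPM in OESko_A11), Ascl2 (1.63), Mest (1.41, from 68.6 RPM in Sko_F6 to 175 RPM in Zko_E5), Usp29 (1.07), Cd81 (1.06) and Ndn (1.04). Genes usually expressed from the maternal copy (Phlda2, Slc22a18, Cdkn1c, Ascl2 and Cd81) and genes usually expressed from the paternal copy (Igf2, Plagl1, Nnat, Mest, Usp29 and Ndn) were both among the 11. At day 0 the libraries of Zko_E5 were made under another extraction protocol than those of OE_A2 and Zko_G10. A difference of Zko_E5 from these lines at day 0 cannot be told apart from one between protocols. Phlda2 at day 0 was 114 ± 5.27 RPM in OE_A2, 86.3 ± 5.33 in Zko_G10 and 2.14 ± 0.0533 in Zko_E5 (SD, n = 2 each). Cdkn1c at day 0 was 24.6 ± 7.19 RPM in Zko_G10 and 0.895 ± 0.274 RPM in Zko_E5, and Grb10 was 14.1 RPM in Zko_G10 and 1.11 RPM in Zko_E5. Peg3 at day 0 was 851 RPM in Zko_E5 and 850 RPM in Zko_G10, and 234 RPM in OE_A2.

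Under B2RA at days 5 to 9 the knockout clones were compared with H18. In the Zglp1-/- clones, 5 of 22 imprinted genes were called (22.7%, beside 14% of all genes, 5.42% higher and 8.63% lower), and in the Stra8-/- clones 3 of 22 (13.6%, beside 7.72% of all genes, 3.52% higher and 4.2% lower). Meg3 had 2.51, 30.5 and 252 RPM in the Zglp1-/- clones, against 0.737, 4.08 and 157 RPM in H18 (2.03 ± 0.33, adjusted p = 2.8e-07), and its difference was 2.47 ± 0.33 in the Stra8-/- clones. H19 had 226, 780 and 2926 RPM in the Zglp1-/- clones, against 43.4, 133 and 489 RPM in H18 (2.50 ± 0.36, adjusted p = 8.6e-09), and its difference was 2.22 ± 0.36 in the Stra8-/- clones. Both genes were called in each of the 4 clones alone, Meg3 with differences of 1.95 in Zko_E5, 2.11 in Zko_G10, 3.27 in Sko_B6 and 1.68 in Sko_F6, and H19 with 3.07, 1.93, 2.69 and 1.75 in the same order. All of these comparisons use the same H18 libraries, and H18 is 1 line.

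With BMP2 in place of B2RA, the Zglp1-/- clones against H18 called 5 of 19 imprinted genes (26.3%, beside 7.33% of all genes). Meg3 (1.9) and H19 (2.56) were again higher, and the H19 ranges did not overlap, at 151 to 868 RPM in the clones and 19.4 to 150 RPM in H18. Plagl1 (1.1) and Mest (1.02) were higher and Ascl2 (-1.1) was lower in the clones. Under B2RA, Cd81 (1.03), Peg3 (1.26) and Plagl1 (1.21) were higher in the Zglp1-/- clones and Plagl1 (1.2) in the Stra8-/- clones. Without day 7 the Plagl1 differences were 0.17 in the Zglp1-/- clones and -0.06 in the Stra8-/- clones, and without H18 B2RA replicate 2 of day 9 they were 0.72 and 0.71 in the same order. In the Zglp1-/- clones the Cd81 call was lost without day 9 (0.56, adjusted p = 0.19) and the Peg3 call without day 7 (0.91, adjusted p = 0.072). Of 6 pluripotency markers, 4 were higher in the Zglp1-/- clones and 3 in the Stra8-/- clones than in H18 under B2RA, and the part of this in the imprinted genes was not tested. Over all 5 lines with B2RA, an F test called 11 of 24 imprinted genes (45.8%, beside 24.8% of all genes) and 5 without day 9. The widest range of means of log2 values was that of Meg3 (3.27), lowest in H18 and highest in Sko_B6. The next was that of H19 (3.07, from 199 RPM in H18 to 1525 RPM in Zko_E5).

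The weight of clone, treatment and day was set side by side over the 64 libraries of the 4 knockout clones with B2RA and in control at days 4, 5, 7 and 9, as shares of the sum of squares of log2(RPM + 1). These shares are a description and carry no test. Treatment took the largest part in Phlda2 (76.7%), Slc22a18 (61.8%) and Nnat (45.5%), and clone took 6.07%, 2.73% and 5.22% there. Day took the largest part in Gnas (74.3%), Meg3 (68.7%), Cd81 (68.4%) and Plagl1 (63.0%). Among clone, treatment and day, clone took the largest part in Peg3 (36.5%), and also in Ndn, Impact, Grb10 and Tssc4. In Ndn, Grb10 and Tssc4 the spread between replicates took a larger part than clone. After Peg3, the highest shares of clone were 31.3% in Mest (beside 35.4% for treatment), 27.7% in Igf2 (beside 33.8% for day), 23.4% in Snrpn (beside 35.3% for treatment) and 20.8% in Cdkn1c (beside 47.0% for day). The medians over 25 imprinted genes were 8.82% for clone, 7.35% for treatment and 28.2% for day, and the medians over 10977 genes were 7.54%, 4.86% and 17.6%. Over the 48 libraries of 6 lines in control medium, line took the largest part in Slc22a18 (60.7%), Igf2 (59.2%), Impact (57.9%), Ndn (55.5%) and Phlda2 (53.7%), and day in Meg3 (75.7%), Nnat (69.9%) and Gnas (69.7%).

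**Figure D4:**
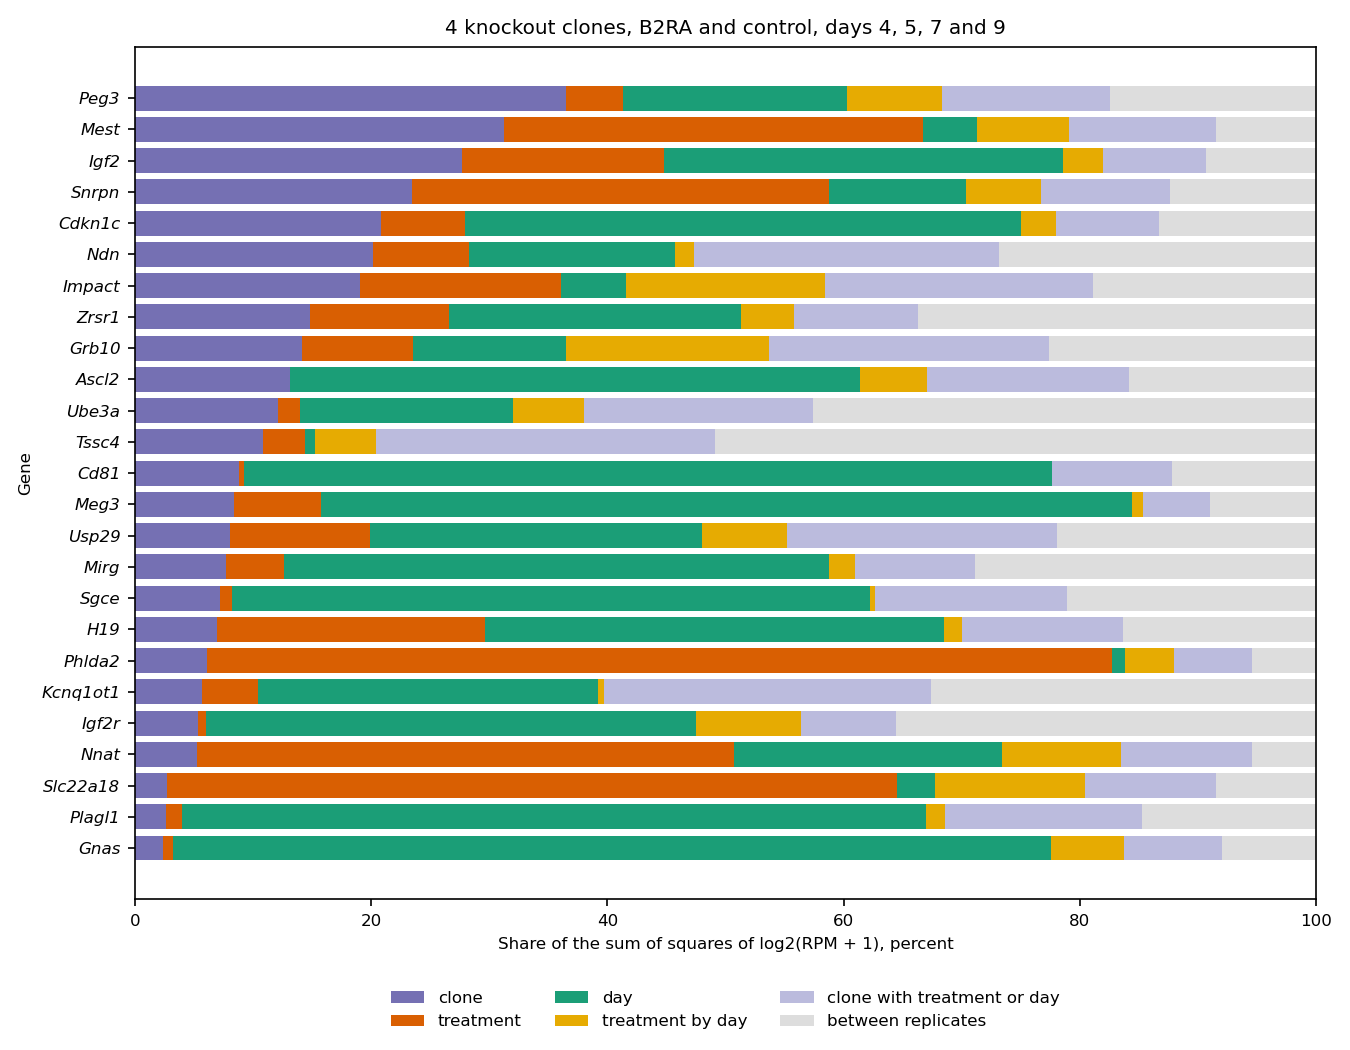
Share of the sum of squares of log2(RPM + 1), in percent, taken by clone, treatment, day, their combinations and the spread between replicates, for 25 imprinted genes over 64 libraries of 4 knockout clones. Treatment fills most of the Phlda2 bar (76.7%), day most of the Gnas bar (74.3%), and clone reaches its largest share in Peg3 (36.5%).

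**Figure D5:**
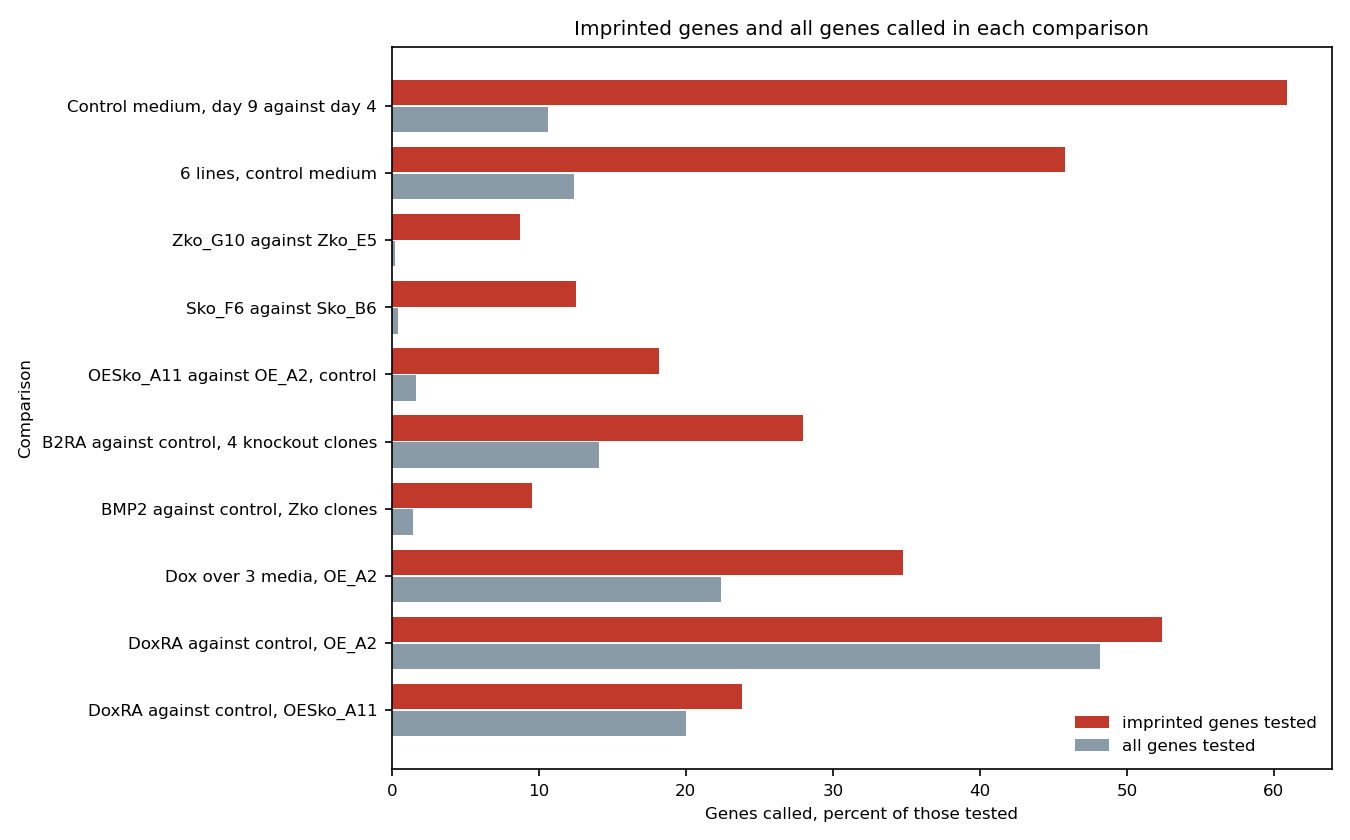
Percent of imprinted genes tested (red) and of all genes tested (grey) that were called in each of 10 comparisons. The gap is widest for day 9 against day 4 in control medium (60.9% and 10.6%), while with DoxRA in OE_A2 the bars lie close together (52.4% and 48.2%).

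The embryonic germ cells gave 1 library at each stage, so their values have no replicate check. Phlda2 had 429 RPM in E9.5 PGCs, 34.5 RPM in E14.5 oocytes and 6.43 RPM in E15.5 oocytes, and Mest had 172, 9.70 and 20.4 RPM at the same stages. Snrpn had 194, 29.7 and 26.1 RPM and Impact had 28.5, 7.58 and 4.65 RPM. Meg3 stood at 46.9, 7.58 and 11.4 RPM, H19 at 70.1, 25.8 and 32.5 RPM and Nnat at 14.1, 0.606 and 4.65 RPM. Cdkn1c ran the other way, with 21.5, 46.1 and 56.1 RPM, and Igf2 changed little, with 82.0, 61.8 and 59.3 RPM.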

How the data were processed

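The authors deposited gene levels as RPM (reads per 1000000 assigned to endogenous genes), from 3′-end cDNA sequencing. Columns whose 3 transgene rows take the sum past 1000000 are recorded as a signal, deposited by the authors and scaled like RPM. The submitters' processing notes name HTSeq 0.9.1, TopHat2 2.1.0, SAMtools 1.3, Bowtie 1.1.2, cutadapt 1.9.1 and build mm10, without their roles. Whether strands were counted apart and which annotation was used are not given in the sources used here. Gene coordinates were taken from GENCODE annotation of the same build by gene symbol.

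Of 195 value columns 194 were matched to samples by name and 1 was not used. 2 of the 196 samples had no column and were not analysed here. In 3 lines an extra cell before the values was removed. Dividing each column by its smallest step gave read numbers, with 100% of values whole within 0.05, and the sources used here mention no molecular identifiers, so read numbers are not numbers of molecules. The depth of 877040 to 5196593 reads per library limits precision for genes at a few RPM.

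Group means of log2(RPM + 1) were fitted by limma 3.58.1 in R 4.3.3 (lmFit, with eBayes set to trend and robust) over 191 PGCLC libraries, 98 groups in all. A change on this scale understates the change of low genes. Genes with 10 RPM or more in at least 2 of the libraries compared were tested, and p-values were adjusted over all of them by Benjamini-Hochberg. Clones were given separate means and equal weight, so p-values do not hold the spread between clones. The tests were tried on simulated data.

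Alternatives were pseudocounts of 0.5 and 5, no filter, TMM factors, the replicate number as a block, only the groups compared, edgeR 4.0.16 on the recovered whole reads (quasi-likelihood test), each library left out and each day left out. The variance shares and their alternatives, the fits of single clones, lines and days, and the comparisons of the Zglp1-/- clones with H18 under BMP2 and of DoxRA with Dox were chosen after seeing the data. The members and lists were chosen with earlier results of these data known. The rule for genes given with levels and tests was a call in a shared treatment contrast (doxycycline over 3 media, B2RA over 4 clones), in a contrast of clones within a genotype, or over 6 untreated lines. Others among the 33 are named where they were called. Of the other lists, at most 5 called genes per comparison are named, and 1 gene is not reported here.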

Additional observations from a re-analysis of the deposited data

Results flagged for a closer look

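In 8 cases the response of an imprinted gene differed between groups under the same treatment, by a limma test of the difference itself, adjusted over all genes tested. The B2RA response at day 9 of the Stra8-/- clones minus that of the Zglp1-/- clones was -1.82 for Phlda2 (adjusted p = 0.041), -1.91 for Slc22a18 (adjusted p = 0.04) and 1.89 for Grb10 (adjusted p = 0.022). These 3 genes are 12% of the imprinted genes tested, beside 8.04% of all genes. Phlda2 rose in each of the 4 clones, to 141 and 190 RPM in the Stra8-/- clones and to 457 and 513 RPM in the Zglp1-/- clones (means of 2 libraries). Its control level in Sko_F6 was 75.5 and 5.33 RPM. Of 23 other settings, the Phlda2 call was lost under 13, the Slc22a18 call under 15 and the Grb10 call under 6, among them the fit with only the groups compared (adjusted p of 0.15, 0.066 and 0.11 for Phlda2, Slc22a18 and Grb10).

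The DoxRA response of OESko_A11 minus that of OE_A2 was 2.95 for Impact (adjusted p = 2.1e-07), 2.91 for Zrsr1, 2.96 for Grb10 (adjusted p = 0.0053) and 1.78 for Gnas (adjusted p = 0.0036). These 4 genes are 18.2% of the imprinted genes tested, beside 20% of all genes, a share near the background. Without OE_A2 DoxRA replicate 1 the Gnas difference was 1.31 (adjusted p = 0.061), and without OE_A2 control replicate 1 the Grb10 difference was 2.33 (adjusted p = 0.072). Impact and Zrsr1 fell with DoxRA in OE_A2 and were not called in OESko_A11, and Grb10 rose in OESko_A11 and was not called in OE_A2. The doxycycline response of Zrsr1 in BMS minus that in control medium was 1.95 (adjusted p = 0.024), 1 of 22 imprinted genes tested (4.55%, beside 1.64% of all genes). In BMS, Zrsr1 had 31.6 and 34.1 RPM with doxycycline, against 4.5 and 23.4 RPM without it, and the change in BMS was 0.47 without BMS replicate 1.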

How the results depend on the processing

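Of 434 values of the 25 counts under other settings, 389 were within 1.5 times the count reported, and of 2463 values of 128 single genes 196 lost their call and 1 reversed. The replicate number as a block changed no count (7 for the shared B2RA response), and with 2 libraries per group the numbers could not be shown to pair samples. Among the shared responses, Phlda2, Slc22a18, Igf2, H19, Mest and Nnat with B2RA and Meg3, Mest, Nnat and Grb10 with doxycycline kept their calls in every setting run. The reversed value was Plagl1 in the Stra8-/- clones against H18 without day 7 (-0.0628). With a pseudocount of 5 the counts were 7 for 6 control lines, 5 for Sko minus Zko, 5 for doxycycline over 3 media, 1 for BMS, 8 for BMSDox, 0 for OESko_A11 against OE_A2, 1 for Sko_F6 against Sko_B6 and 3 for Zko against H18. With only the groups compared they were 1 for Sko minus Zko, 1 for H18 B2RA against BMP2, 0 for BMS and 8 for BMSDox. With no filter they were 9 for H18, 8 for DoxRA in OESko_A11, 9 for Zko with B2RA and 4 for Zko with BMP2. With edgeR they were 1 for BMS and 8 for Dox. Leaving out days gave 5 for 5 lines under B2RA (without day 9), 1 and 2 for OESko_A11 against OE_A2 (without day 5 and day 7) and 8 for Zko against H18 (without day 5). TMM factors gave 10 for the shared B2RA response (5 higher, 5 lower) and 8 for doxycycline (1 higher, 7 lower). Leaving out single libraries gave 0 to 4 for Sko minus Zko, 0 to 2 for Zko_G10 minus Zko_E5, 1 to 5 for H18, 0 to 2 for BMS, 1 to 5 for BMSDox, 7 to 12 for DoxRA in OE_A2, 2 to 5 for SerumMinusWINDox, 1 to 5 for OESko_A11 against OE_A2 and 3 to 6 for Zko against H18. The cause of these shifts was not tested. Depth limits Grb10, Slc22a18, Sgce, Mirg and Usp29, whose levels were a few RPM in many libraries.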

Other observations

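H18 was sampled with RA at days 3.5 and 4. Phlda2 there had means of 51.8 RPM at day 3.5 and 15.4 RPM at day 4 with RA, and 66.3 and 27.8 RPM in control. With BMP2 its means were 119 RPM at day 3.5 and 53.5 RPM at day 4, and it had 205 RPM at day 5, 180 at day 7 and 108 at day 9. The control libraries of day 4 were made under another extraction protocol than those of RA and BMP2. Treatment and protocol therefore cannot be told apart at day 4. The single OE_A2 library of day 9 in SerumMinus, which has no replicate, had 136 RPM of Meg3, 108 RPM of Nnat, 276 RPM of Mest and 23.6 RPM of Phlda2.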
